A study of Homo sapiens with 36 samples.

Results

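Serine made from glucose feeds glycine, folate one-carbon units and, with asparagine, protein synthesis, and 10 enzymes of these routes were followed here through RNA and ribosome footprints in cultured human cell models of transformation. The set was defined by gene symbol, but it was chosen with earlier results of these data known. It holds PHGDH, PSAT1 and PSPH of serine synthesis, SHMT1 and MTHFD1 of the cytosolic folate cycle, and ASNS. The mitochondrial folate cycle is covered by SHMT2, MTHFD2, MTHFD1L and ALDH1L2. For each symbol the transcript with the highest mean count was taken, which gave 10 genes of the 19137 symbols in the count tables. Ribosome profiling counts the short pieces of messenger RNA that ribosomes protect, and matched RNA sequencing gives the amount of the messages themselves.

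Cytosolic PHGDH, PSAT1 and PSPH convert a glycolytic intermediate to serine in consecutive steps, and the serine hydroxymethyltransferases SHMT1 (cytosol) and SHMT2 (mitochondria) pass a carbon from serine to tetrahydrofolate. MTHFD2 and MTHFD1L carry that carbon to formate inside mitochondria, ALDH1L2 burns it to carbon dioxide, and MTHFD1 takes up formate in the cytosol for purine and thymidylate synthesis. ASNS makes asparagine from aspartate and glutamine, and many of these genes are known targets of ATF4, a transcription factor whose own message is translated through upstream reading frames when amino acids run short.

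The BJ lines are skin fibroblasts in 3 derivatives labelled EH, EL and ELR, names that the labels do not spell out. As background, BJ series of this kind carry telomerase, then the SV40 early region, then an oncogenic HRAS, so that each line keeps what the line before it received. Each BJ line had 2 footprint libraries made under cycloheximide, which stops elongating ribosomes, 2 made under harringtonine, which traps new ribosomes at the start codon, and 1 RNA library. The labels do not say whether a line was 1 clone or a pool. In MCF10A-ER-Src breast epithelial cells, Src is joined to the hormone-binding part of the oestrogen receptor and becomes active on adding 1 µM 4-hydroxytamoxifen. Those cells were taken before induction, after ethanol (the vehicle) for 1, 4 or 24 h, or after tamoxifen for 1, 4 or 24 h, with 10 cycloheximide, 4 harringtonine and 7 RNA libraries. The 4 uninduced libraries (0 h, and ethanol at each time) were pooled as controls. Under cycloheximide the 0 h library carries replicate number 1 and the ethanol libraries number 2. Vehicle and number therefore cannot be told apart in the cycloheximide libraries of that arm. The RNA libraries all carry number 1.

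Total counts ran from 1178012 to 3628073 in the cycloheximide libraries and from 2071883 to 3008760 in the RNA libraries. The harringtonine libraries held 129175 to 374359 counts and were thus far less precise. Levels are given as normalised read counts (CPM, counts scaled by the trimmed-mean, TMM, library size). No label says that replicates were separate cultures, so p-values measure the spread between these libraries, which may be technical. Counts of the 2 cycloheximide replicates of a BJ line differed little more than sampling alone gives, with a chi-square per gene between 1.09 and 1.18. Between tamoxifen replicates of the ER-Src cells it was higher, at 3.83, 5.27 and 3.87 for 1, 4 and 24 h. Markers went with the labels: in the BJ cycloheximide libraries KRT5, KRT6A and CDH1 had no count, and in the ER-Src ones COL1A2, COL3A1 and THY1 had none. The other 7 of the 10 markers of each list had counts, and the fibroblast sum was 993 to 1612 CPM in the ER-Src cycloheximide libraries, where the epithelial sum was 10939 to 21441 CPM. The summed level of the 10 fibroblast markers was not constant over the BJ lines, with 40388 to 40420 CPM in EH, 14441 to 14675 in EL and 10867 to 10967 in ELR. That of the 10 epithelial markers was 252 to 278, 62.7 to 63.1 and 59.2 to 65.0 CPM, that of the 5 leukocyte markers at most 3.44 CPM, and that of the 5 endothelial markers at most 8.12 CPM. The part of these movements in the results below was not tested.

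The members lie on 8 chromosomes (GRCh37). PHGDH (NM_006623) spans 120191034 to 120286841 on chromosome 1, PSAT1 (NM_058179) 80912041 to 80945009 on chromosome 9 and PSPH (NM_004577) 56078744 to 56119297 on chromosome 7. SHMT1 (NM_004169) spans 18231174 to 18266877 on chromosome 17 and MTHFD1 (NM_005956) 64854749 to 64930175 on chromosome 14. The mitochondrial enzymes are SHMT2 (NM_005412, chromosome 12, 57623356 to 57628718), MTHFD2 (NM_006636, chromosome 2, 74413299 to 74444692), MTHFD1L (NM_001242767, chromosome 6, 151186815 to 151423023) and ALDH1L2 (NM_001034173, chromosome 12, 105413562 to 105501421). ASNS (NM_001673) spans 97480989 to 97501854 on chromosome 7. The counts were taken to cover the coding regions of these transcripts. PSPH and SHMT1 have pseudogene copies in the genome, and the sources used here do not say how reads shared with them were counted, so their values are uncertain.

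In EH cells, PSAT1 and PHGDH had the highest footprint density of the set. Per kilobase of coding length, which allows levels of different genes to be compared, cycloheximide footprints were highest on PSAT1 (401 CPM per kb), PHGDH (282) and MTHFD2 (269), followed by SHMT2 (180) and ASNS (158). SHMT1, with 17.7 CPM per kb, was lowest. No neighbours in this order overlapped between the 2 EH libraries. In ELR cells the order was led by SHMT2 (190 CPM per kb), MTHFD2 (145) and MTHFD1 (116), with PHGDH at 107 and PSAT1 at 89.6, and ALDH1L2 was last at 2.15. There, SHMT1, MTHFD1L, PSPH and ASNS, between 33.3 and 22.2 CPM per kb, each overlapped the next.

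EL against EH is the first step of the series. Footprints on PHGDH, PSAT1, MTHFD2, MTHFD1L, ALDH1L2 and ASNS fell in EL, while those on the cytosolic enzymes SHMT1 and MTHFD1 rose. Of the 10 members 8 were thus called by the edgeR quasi-likelihood test, where 41.5% of all 9996 genes were called (19.1% higher and 22.4% lower). The members' median log2 change was −0.65, beside −0.01 over all genes. In such bulk libraries, fewer cells of a type and less RNA per cell cannot be told apart.

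PHGDH, which starts serine synthesis, had 449 and 452 CPM in EH and 267 and 260 CPM in EL, a log2 change of −0.76 ± 0.07 (SE; adjusted p = 1.46e-16). PSAT1, the aminotransferase of the next step, had 450 and 441 CPM in EH and 174 CPM in both EL libraries, and its change is −1.35 ± 0.07 (adjusted p = 3.15e-27). For both genes every EH library lay above every EL library. The share of all genes whose libraries separate in this way was not counted, here or in the comparisons below. PSPH, the phosphatase that ends the route, had 20.5 and 30.7 CPM against 21.9 and 25.0 CPM. These overlap, and the log2 difference of −0.10 has a 95% interval from −0.57 to 0.38.

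Of the cytosolic folate enzymes, SHMT1 had 29.6 and 21.7 CPM in EH against 42.7 and 47.2 CPM in EL, a rise of 0.79 ± 0.20 on the log2 scale (adjusted p = 0.000905). MTHFD1 had 248 and 227 CPM against 333 and 330 CPM, a rise of 0.49 ± 0.07 (adjusted p = 3.83e-08). Neither overlapped between the lines. In the mitochondria, ALDH1L2 showed the widest difference of the set, with 163 and 153 CPM in EH and 33.9 and 27.2 CPM in EL (log2 change −2.35 ± 0.14, adjusted p = 1.48e-24). MTHFD1L, which releases formate, went from 139 and 153 CPM to 80.0 and 74.5 CPM (−0.90 ± 0.11, adjusted p = 2.07e-10). MTHFD2 went from 289 and 276 CPM to 201 and 186 CPM (−0.53 ± 0.08). SHMT2 did not follow them: its 292 and 252 CPM overlapped the 253 and 270 CPM of EL, with an interval of the log2 difference from −0.21 to 0.09. ASNS had 278 and 255 CPM in EH and 104 and 115 CPM in EL, a log2 change of −1.29 ± 0.09 (adjusted p = 1.08e-20).

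**Figure D1:**
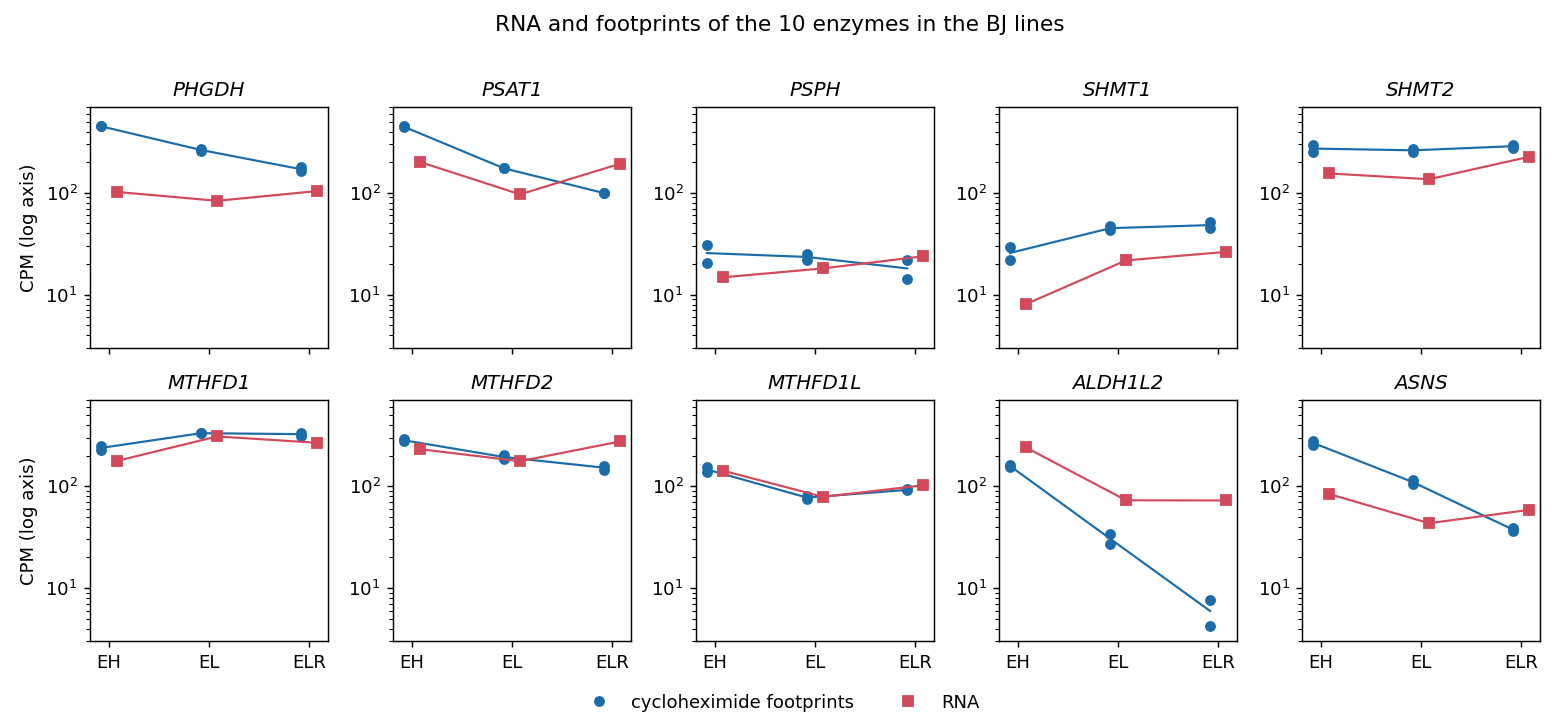
Level of each member in every BJ library, a panel for each gene, with the 3 lines on the horizontal axis and CPM on a log axis; blue circles are cycloheximide footprints (2 libraries per line, lines join the means), red squares RNA (1 library per line). PHGDH, PSAT1, ALDH1L2 and ASNS step down in footprints from EH to EL to ELR, whereas RNA of PHGDH, PSAT1 and ASNS is higher in ELR than in EL.

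From EL to ELR, which shares the EL libraries with the comparison above, footprints on PHGDH, PSAT1 and ASNS fell again. PHGDH had 163 and 178 CPM in ELR (log2 change −0.62 ± 0.07, adjusted p = 1.4e-11) and PSAT1 99.3 and 99.6 CPM (−0.79 ± 0.09). ASNS had 35.9 and 38.9 CPM, a further log2 change of −1.53 ± 0.12 (adjusted p = 1.41e-17). All ELR values of these 3 genes lay below all EL values. ALDH1L2 had 7.64 and 4.26 CPM in ELR, from 20 and 8 counts, a log2 change of −2.27 ± 0.26 (adjusted p = 1.51e-11). MTHFD2 had 145 and 159 CPM, a fall of 0.34 ± 0.08 (adjusted p = 0.000273).

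Of the 10 members 5 were called lower and 2 higher at this step, with 36.1% of all genes called (17.4% higher and 18.7% lower) and a members' median of −0.32. The rises were small: SHMT2 had 296 and 278 CPM in ELR (0.16 ± 0.06, adjusted p = 0.0368), and MTHFD1L 92.8 and 91.1 CPM (0.27 ± 0.11, adjusted p = 0.0391). Neither is called by DESeq2 or with the spread taken from all 16 cycloheximide libraries. The rise of SHMT2 is also not called without EL replicate 1, ELR replicate 1 or ELR replicate 2 (0.10 to 0.19), and that of MTHFD1L without any of the 4 libraries (0.23 to 0.31). MTHFD2 is not called with the 16-library spread or without ELR replicate 1 (−0.25). SHMT1 had 44.7 and 51.7 CPM and MTHFD1 335 and 314 CPM in ELR, both overlapping their EL values. PSPH had 21.8 and 14.4 CPM, both below its EL values, and none of these 3 was called.

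Between the ends of the series, ELR had 24.7-fold fewer ALDH1L2 footprints than EH (log2 change −4.62 ± 0.19, adjusted p = 8.04e-33), 7.04-fold fewer ASNS footprints (−2.82 ± 0.11) and, on the log2 scale, −2.13 ± 0.08 for PSAT1, −1.38 ± 0.07 for PHGDH, −0.87 ± 0.08 for MTHFD2 and −0.63 ± 0.11 for MTHFD1L. SHMT1 was higher by 0.91 ± 0.20 and MTHFD1 by 0.48 ± 0.07. That is 8 of 10 members called, with 53.4% of all genes called (25.5% higher and 27.8% lower), and a members' median of −0.75 beside −0.01. SHMT2 and PSPH were not called.

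RNA values of the same enzymes ran a different course. With 1 RNA library per line there is no test, and the log2 ratios below (pseudocount of 1 CPM) are values only. In the order EH, EL, ELR, the RNA of ASNS was 83.9, 43.3 and 58.5 CPM. PSAT1 RNA had 201, 96.6 and 193 CPM, so that the ELR library was back near the EH one (ELR against EH −0.06). PHGDH RNA stayed between 83.5 and 104 CPM over the 3 lines. MTHFD2 RNA had 231, 176 and 275 CPM, which puts the highest RNA value in the line with the fewest MTHFD2 footprints.

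ALDH1L2 RNA had 240 CPM in EH, 72.7 in EL and 72.4 in ELR, a log2 ratio of −1.71 at the first step and −0.01 at the next. SHMT1 RNA had 8.07, 21.7 and 26.3 CPM, MTHFD1 RNA 177, 308 and 267 CPM, and MTHFD1L RNA 142, 78.6 and 102 CPM. For these 3 genes RNA and footprints lay on the same side of EH in both later lines. SHMT2 RNA had 155, 136 and 226 CPM, and PSPH RNA 14.8, 18.1 and 23.8 CPM. Against EH, RNA in EL was lower for 7 members and higher for 3, with a median log2 ratio of −0.33 beside −0.04 over all genes. PSAT1 and ALDH1L2 had at least 2-fold less RNA there, as did 8.01% of 8872 genes, and SHMT1 at least 2-fold more, as did 5.25%. Against EL, RNA in ELR was higher for 8 members and lower for 2, with a median of 0.37 beside 0. At that step 3.41% of 8775 genes had at least 2-fold more RNA and 6.68% at least 2-fold less, and no member passed 2-fold, PSAT1 coming nearest at a log2 ratio of 0.99.

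**Figure D2:**
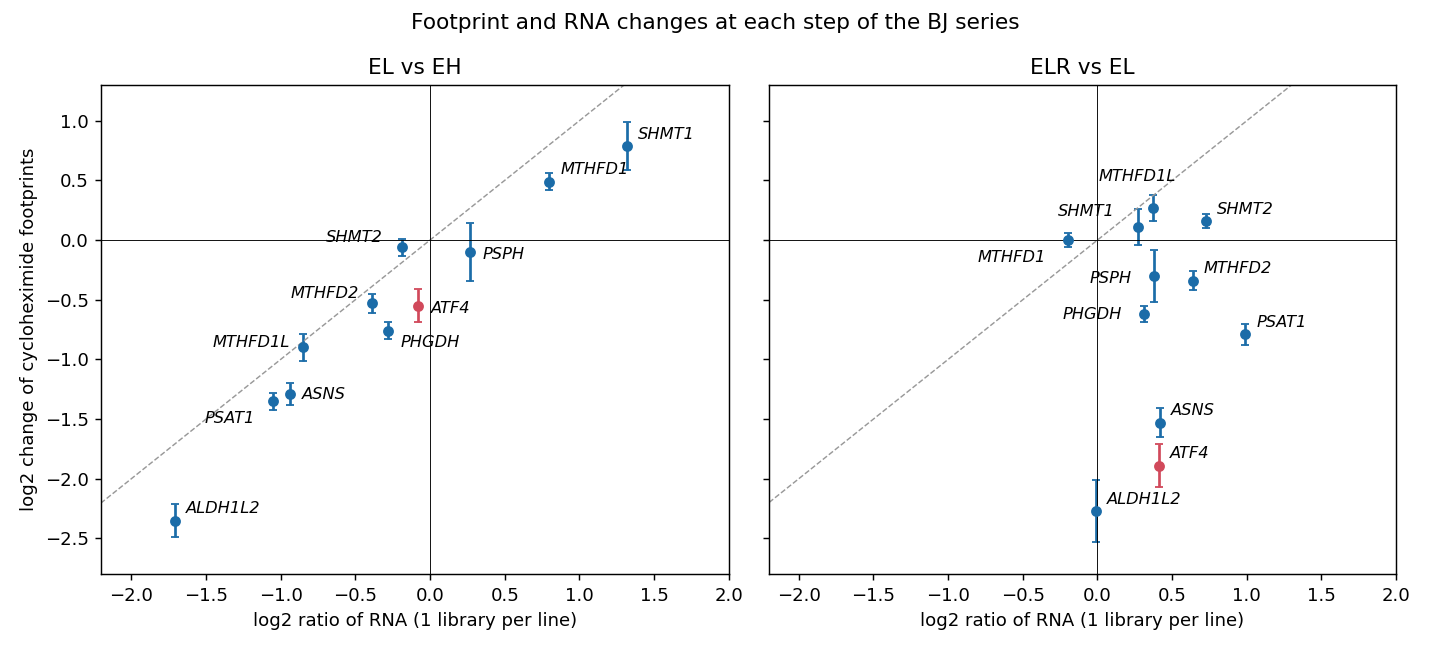
Log2 change of cycloheximide footprints (vertical, with SE) against the log2 ratio of RNA (horizontal, 1 library per line) for the 10 members (blue) and ATF4 (red), for EL against EH (left) and ELR against EL (right); on the dashed line both are equal. For EL against EH all members but SHMT2 lie below the line, ALDH1L2 furthest, at −1.71 in RNA and −2.35 in footprints. For ELR against EL all but MTHFD1 lie below it. Furthest there are ALDH1L2, ASNS, PSAT1, MTHFD2 and PHGDH, with PSAT1 at 0.99 in RNA and −0.79 in footprints.

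Ribosome loading, the change in footprints beyond the change in RNA, was tested as an interaction term in a fit of all 26 cycloheximide and RNA libraries. The fit estimates the spread of a gene jointly for both assays, from the cycloheximide replicates and the 4 uninduced ER-Src RNA libraries. No BJ line has a second RNA library, so the spread of BJ RNA was not measured. From EL to ELR, loading of PSAT1 fell by 1.77 ± 0.26 on the log2 scale (95% interval −2.28 to −1.26, adjusted p = 0.00285). PSAT1 was 1 of only 2 genes called among 12143 in that comparison (0.0165%), and the other was ATF4 (−2.29 ± 0.32, adjusted p = 0.00285). That number depends on the fit: with only the BJ libraries 329 genes and 6 members were called, and with no filter on low counts 5 genes and 3 members. Next in the set came ALDH1L2 at −2.26 ± 0.48 (adjusted p = 0.234), ASNS at −1.95 ± 0.54 (0.653), MTHFD2 at −0.96 ± 0.24 (0.42) and PHGDH at −0.91 ± 0.29 (1), none of them called. PSPH (−0.71), SHMT2 (−0.57), SHMT1 (−0.15), MTHFD1L (−0.09) and MTHFD1 (0.21) were not called either. The members' median was −0.81, beside 0 over all genes, and 6 of 10 members had an unadjusted p under 0.05, as did 437 of 12143 genes.

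Between ELR and EH, loading of 4 members was called lower and of none higher, where 0.494% of all genes were called (0.338% higher and 0.156% lower). The log2 change in loading was −2.01 ± 0.25 for PSAT1 (adjusted p = 0.000222), −2.84 ± 0.45 for ALDH1L2 (adjusted p = 0.00392), −1.34 ± 0.29 for PHGDH (adjusted p = 0.0336) and −1.05 ± 0.24 for MTHFD2 (adjusted p = 0.0446). ASNS, at −2.23 ± 0.52, missed the threshold (adjusted p = 0.052), and ATF4 fell by 2.71 ± 0.33 (adjusted p = 0.00019). PHGDH (−1.27 to −1.41) and MTHFD2 (−0.99 to −1.12) are not called when any 1 of the 4 EH and ELR cycloheximide libraries is left out. MTHFD1 (−0.05) and MTHFD1L (−0.09) were nearest 0, and PSPH (−1.05), SHMT1 (−0.72) and SHMT2 (−0.38) were not called. With only the BJ libraries 829 genes and 6 members were called, and with no filter 128 genes and 5 members. The members' median was −1.05 beside 0.06.

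From EH to EL no member was called in loading by edgeR in the fit of 26 libraries, where 0.0576% of all genes (7) were called. In that fit no member had an unadjusted p under 0.05, while 891 of 12143 genes had. With only the BJ libraries 1 member and 743 genes were called. The members' median was −0.27 beside 0.05. PSAT1 stood at −0.24 (95% interval −0.74 to 0.27) and ASNS at −0.28 (−1.30 to 0.74), intervals that still allow sizeable changes. The others ran from −0.58 for ALDH1L2 to 0.19 for SHMT2.

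The ratio of footprints to RNA within a line shows the same course as a level. PSAT1 stood at a log2 ratio of 1.14 in EH, 0.85 in EL and −0.96 in ELR, which is the percentile 85.6, 80.5 and 32.5 of all genes of that line. PHGDH stood at 2.15, 1.66 and 0.71, and ASNS at 1.67, 1.33 and −0.65. ALDH1L2 stood at −0.61, −1.25 and −3.60, in ELR at percentile 1.47. The median of all genes stayed between −0.31 and −0.33. In EH, PHGDH, ASNS and PSAT1 were thus among the more heavily loaded messages, and in ELR ASNS and PSAT1 lay below the median gene. These traits were shared: SHMT1 also stood at 1.67 in EH (percentile 92.1), with RNA at only 8.07 CPM, and at percentile 81.4 in ELR. MTHFD2 (percentile 35.3), PSPH (48.2) and ALDH1L2 lay below the median gene in ELR too.

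**Figure D3:**
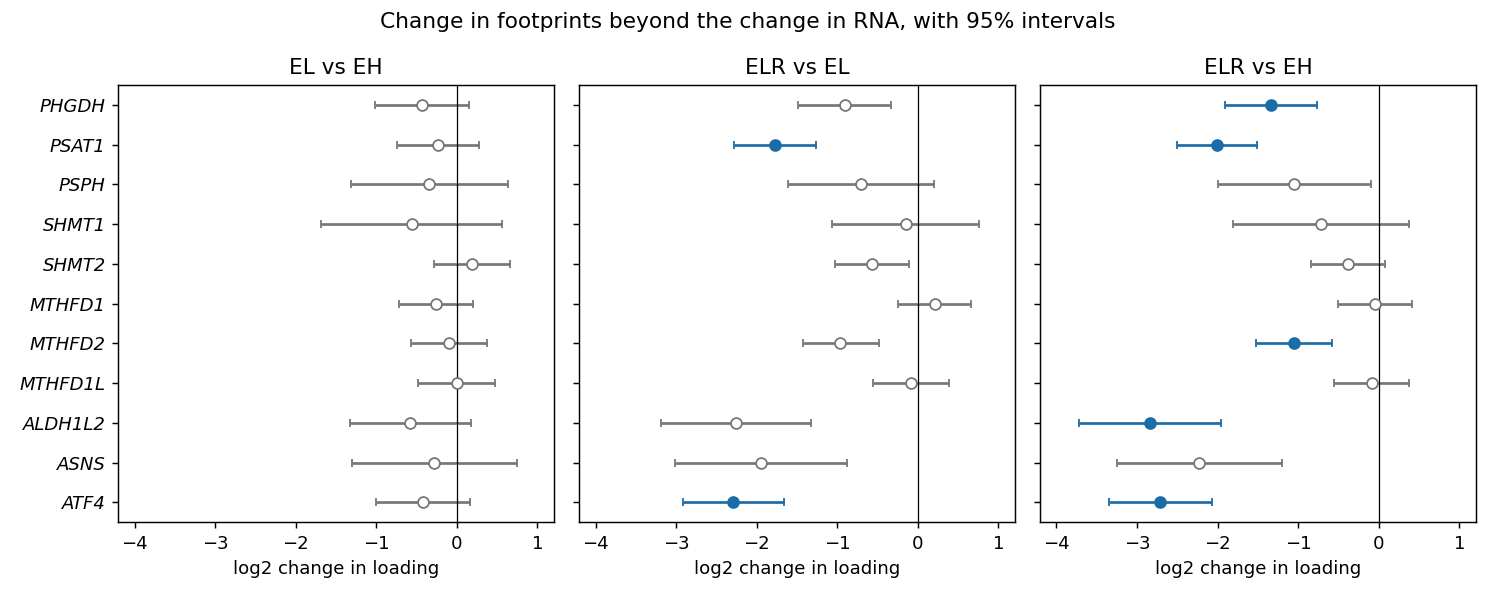
Ribosome loading of the members and ATF4 in the BJ lines as log2 changes with 95% intervals, for EL against EH, ELR against EL and ELR against EH; filled points passed an adjusted p of 0.05. PSAT1 is called in both comparisons with ELR, and MTHFD1L lies near 0 in each panel. MTHFD1 lies at −0.26, 0.21 and −0.05, with intervals that include 0.

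Harringtonine footprints gave a separate set of 6 BJ libraries at far lower depth. They are counts per transcript, taken here to cover whole coding regions, with no separate count at start peaks. PSPH and SHMT1 had too few counts to be tested. PSAT1 had 116 and 175 CPM in EH, 53.9 and 84.2 CPM in EL and 20.3 and 31.7 CPM in ELR, so that no value overlapped between lines. PHGDH had 224 and 140 CPM in EH, 168 and 138 CPM in EL and 91.1 and 77.0 CPM in ELR, with ELR below both other lines. ASNS had 166 and 131, 65.9 and 132, and 15.2 and 54.3 CPM, and ALDH1L2 133 and 105, 47.9 and 60.2, and 15.2 and 4.53 CPM, the last pair from 3 and 1 counts.

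Between ELR and EH 6 of 8 tested members were called lower and 1 higher, with 30.7% of 3553 genes called (13.3% higher and 17.4% lower) and a members' median of −1.13 beside 0.04. The log2 change was −2.50 ± 0.47 for PSAT1 (adjusted p = 1.59e-06), −3.61 ± 0.64 for ALDH1L2 (1.92e-07), −2.10 ± 0.44 for ASNS (1.49e-05), −1.19 ± 0.34 for PHGDH, −1.07 ± 0.37 for MTHFD2, −0.93 ± 0.33 for MTHFD1L and 0.64 ± 0.22 for MTHFD1. The first 3 of these are the ones DESeq2 also calls. Leaving out a library ends the call of PHGDH (without EH replicate 1, −0.87), MTHFD2 (without EH replicate 1, −0.63, or ELR replicate 1, −0.92), MTHFD1L (without EH replicate 2, −0.58, or ELR replicate 2, −0.77) and MTHFD1 (without any of the 4, 0.53 to 0.73). For EL against EH, PSAT1 alone was called (−1.13 ± 0.41, adjusted p = 0.0323), with 18.5% of all genes called (7.57% higher and 11% lower), and the call is lost without EL replicate 1 (−0.86) or EH replicate 2 (−0.79). For ELR against EL, ALDH1L2 (−2.40 ± 0.72) and ASNS (−1.44 ± 0.44) were called, with 16.3% of all genes called (6.39% higher and 9.91% lower). That of ALDH1L2 is lost without EL replicate 2 (−2.22) or ELR replicate 2 (−1.78), and that of ASNS without EL replicate 2 (−0.86) or ELR replicate 1 (−0.84). DESeq2 calls no member in either of these steps. The other tested members ran from −1.20 (ALDH1L2) to 0.39 (MTHFD1) in EL against EH and from −1.36 (PSAT1) to 0.26 (MTHFD1) in ELR against EL, and SHMT2 stood at −0.13 in ELR against EH.

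In cycloheximide footprints ATF4 itself moved along with the members that fell, and its part in their change was not tested. Its cycloheximide footprints were 79.0 and 82.1 CPM in EH, 53.5 and 55.8 CPM in EL and 14.9 and 13.9 CPM in ELR, a log2 change of −0.55 ± 0.14 and then −1.89 ± 0.18, while its RNA was at 579, 548 and 727 CPM. Of 31 tested genes on a list of ATF4 and other targets of it, 22 fell and none rose in EL against EH, 20 fell and 2 rose in ELR against EL, and 25 fell and 1 rose in ELR against EH, with medians of −0.64, −0.36 and −0.86. Over all genes 22.4%, 18.7% and 27.8% were called lower and 19.1%, 17.4% and 25.5% higher, with a median of −0.01 each time. Among the genes of this list with the smallest p were 3 amino acid transporters. SLC38A2, a sodium-coupled importer of neutral amino acids, changed by −1.08, −1.05 and −2.13 over these comparisons, the glutamine importer SLC1A5 by −1.11, −0.69 and −1.79, and the leucine exchanger SLC7A5 by −2.02 in ELR against EH. In loading, 6 of 33 genes of the list were called lower in ELR against EH, among them SLC7A5 (−2.17) and the glycine transporter SLC6A9 (−4.23), and none higher, beside 0.156% lower and 0.338% higher over all genes. Under harringtonine ATF4 had too few counts to be tested, 3 to 9 per library. Its values overlapped between lines: 41.4 and 26.2 CPM in EH, 47.9 and 30.1 in EL, and 35.4 and 40.8 in ELR. Of 18 listed genes tested there, 7 fell in EL against EH, 3 in ELR against EL and 8 in ELR against EH. In ELR against EL 1 rose, and in the others none. The list's medians were −0.43, −0.04 and −0.48, beside 0.01, 0 and 0.04 over all genes.

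Footprints on most called genes in the rest of the folate and methionine pathway rose. Of 19 tested genes of the folate, glycine and methionine cycle outside the set, 8 rose and 3 fell in EL against EH, 6 rose and 2 fell in ELR against EL, and 11 rose and 2 fell in ELR against EH, with medians of 0.21, 0.22 and 0.50. These stand beside 19.1%, 17.4% and 25.5% higher, 22.4%, 18.7% and 27.8% lower and a median of −0.01 over all genes. AHCY, which clears S-adenosylhomocysteine, rose by 0.44, 0.70 and 1.14. GART of purine synthesis rose by 0.54 in EL. CBS, which drains homocysteine toward cysteine, changed by −1.08, −1.41 and −2.49, and the thymidylate synthase TYMS by −0.57 in ELR against EH.

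Of 16 other enzymes of amino acid synthesis, 7 fell and 1 rose in EL against EH, 2 fell and 4 rose in ELR against EL, and 6 fell and 1 rose in ELR against EH. The medians were −0.23, −0.03 and −0.02, and in ELR against EL the counts lie near the shares over all genes (18.7% lower and 17.4% higher). Over all genes 22.4% were lower and 19.1% higher in EL against EH, and 27.8% lower and 25.5% higher in ELR against EH. PCK2, the mitochondrial enzyme that makes phosphoenolpyruvate, changed by −1.36, −1.17 and −2.53, and its loading fell by 1.68 in ELR against EH as the only call of that list. The glutamine synthetase GLUL changed by −1.55 and −1.64 and the argininosuccinate synthase ASS1 by −1.87 and −1.99 in EL and ELR against EH. GOT2, a mitochondrial aspartate aminotransferase, rose by 0.50 from EL to ELR.

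Since footprints on several known ATF4 targets fell together, their promoters were read for the core of the element ATF4 binds with C/EBP proteins, TGATGNAA, on both strands. RefSeq promoter windows of GRCh38.p14, from 250 bases before to 50 after the start site, were at hand for 7 of the 10 members. ASNS and MTHFD1L hold the core, as do 3.62% of all 35116 windows and 4.46% of 27305 symbols with any window (MTHFD1L has 4 windows and ASNS 2), and PHGDH, PSAT1 and MTHFD2 do not within their windows. The 100 bases before the start site are shown for the members whose loading or footprints fell most and that have a window, with any core in capitals.
ASNS, minus strand of chr7:97872409-97872508: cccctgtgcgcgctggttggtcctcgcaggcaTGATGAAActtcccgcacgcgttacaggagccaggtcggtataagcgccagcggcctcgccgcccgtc
PSAT1, plus strand of chr9:78297025-78297124: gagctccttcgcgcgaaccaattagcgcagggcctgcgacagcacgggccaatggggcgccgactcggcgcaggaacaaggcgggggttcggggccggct
PHGDH, plus strand of chr1:119711834-119711933: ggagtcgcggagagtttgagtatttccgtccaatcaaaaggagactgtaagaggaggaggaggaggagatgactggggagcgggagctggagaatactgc
MTHFD2, plus strand of chr2:74198515-74198614: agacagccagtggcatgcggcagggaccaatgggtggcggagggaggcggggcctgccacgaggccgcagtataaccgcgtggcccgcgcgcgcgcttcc
The core of MTHFD1L, whose footprints fell in EL, lies here.
MTHFD1L, plus strand of chr6:150866349-150866372: gccggctcTGATGCAAtcgcgccg
In ASNS the core starts 68 bases before the start site, and in MTHFD1L 129 bases before the start site of 1 of its windows. A match is a description of the letters and says nothing of binding in these cells. The E-box CACGTG, bound by MYC among others, was found in MTHFD1 and MTHFD1L, and in 7.26% of all windows and 8.77% of symbols.
MTHFD1, plus strand of chr14:64388330-64388351: tccctaagCACGTGggttgggt
MTHFD1 rose in EL and ELR, and MTHFD1L fell in both relative to EH.

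Over the 16 cycloheximide libraries, each model centred on its own mean, PHGDH and PSAT1 had a Pearson r of 0.94 and PHGDH and ASNS one of 0.84, whereas PHGDH and MTHFD1 had −0.25. The libraries share lines, arms and replicates, so these are descriptions. Among 5692 genes with enough counts, those most like PSAT1 were TPM2 (0.97), CRIM1 (0.97) and SEPT11 (0.95), and those most like ASNS were RCN1 (0.96), DSTN (0.96) and ACAA2 (0.95). PHGDH was most like PPP2CB (0.94), PSAT1 and EPHX1 (0.93), and MTHFD2 most like CHMP2A (0.95), TPM2 (0.94) and SPPL2A (0.94).

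In MCF10A-ER-Src cells, Src was switched on for up to 24 h, and the question was whether the same enzymes respond. At 24 h footprints on PHGDH and PSAT1 fell relative to uninduced cells and those on the other 8 members were not called, with 14.6% of 10193 genes called (8.80% higher and 5.84% lower). Marker sums moved as well between uninduced cells and 24 h: epithelial markers from 10939 to 15793 CPM to 18812 to 21441 CPM, fibroblast markers from 1325 to 1612 CPM to 1042 to 1061 CPM, and leukocyte markers from 10.8 to 24.8 CPM to 31.6 to 47.6 CPM, with PTPRC and CD3E at 0 throughout. The part of these movements in the result was not tested. PSAT1 had 152 CPM at 0 h and 192, 169 and 153 CPM after ethanol for 1, 4 and 24 h. After tamoxifen it had 149 and 136 CPM at 1 h, 140 and 148 CPM at 4 h, and 69.9 and 95.8 CPM at 24 h. Both 24 h libraries lie below every other one, and the log2 change is −0.99 ± 0.15 (adjusted p = 0.000349).

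PHGDH had 57.2 CPM at 0 h and 60.6, 62.3 and 57.2 CPM after ethanol. After tamoxifen it had 38.7 and 53.5 CPM at 1 h, 38.7 and 47.7 CPM at 4 h, and 27.4 and 38.0 CPM at 24 h, a log2 change at 24 h of −0.83 ± 0.18 (adjusted p = 0.005). All 6 tamoxifen libraries lie below all 4 uninduced ones, and at 4 h the difference is −0.45 (95% interval −0.78 to −0.11), which did not pass the threshold (adjusted p = 0.493). Without tamoxifen 24 h replicate 1, PHGDH is not called at 24 h (−0.63). Within a replicate number, PHGDH changed by −1.04 against 0 h (number 1) and by −0.58 against ethanol at 24 h (number 2), and PSAT1 by −1.11 and −0.67.

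No member was called in footprints at 1 h or at 4 h by edgeR or by DESeq2, where edgeR called 0.0196% and 0.854% of all genes, at 4 h 0.834% higher and 0.0196% lower. At 1 h 0 members had an unadjusted p under 0.05, and at 4 h 1 member had, PHGDH. Of all 10193 genes 795 had one at 1 h and 760 at 4 h. Between 24 h and 1 h PSAT1 was the only member called (−0.77 ± 0.18, adjusted p = 0.00877), with 13.6% of all genes called (7.77% higher and 5.88% lower). That call is lost without tamoxifen 1 h replicate 1 (−0.70) or 24 h replicate 1 (−0.57). ASNS footprints spread widely, and at 1 and 4 h along the replicate number. The libraries of number 1 had 26 CPM at 0 h and 31.9, 31.3 and 29.8 CPM after tamoxifen for 1, 4 and 24 h. Those of number 2 had 66.3, 54.0 and 34.2 CPM after ethanol and 60.0, 53.6 and 32.9 CPM after tamoxifen at the same times. Within number 2, ethanol and tamoxifen of the same time were thus close for ASNS, with 1 library of each. Number 1 has no ethanol library under cycloheximide. At 24 h the log2 difference of ASNS to all uninduced libraries was −0.55 (95% interval −1.19 to 0.10). The other members moved little at 24 h, from −0.30 for SHMT2 (95% interval −0.57 to −0.04) to 0.17 for MTHFD1L (−0.09 to 0.42).

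In RNA, PSAT1 had 136, 146, 159 and 132 CPM in the 4 uninduced libraries (0 h, then ethanol 1, 4 and 24 h) and 101, 112 and 77.3 CPM after tamoxifen for 1, 4 and 24 h. All 3 induced values lie below the uninduced ones, and at 24 h the change is −0.90 ± 0.19 (adjusted p = 0.0109). ASNS RNA had 31.2, 36.4, 24.1 and 20.5 CPM in uninduced cells and 29.3, 19.9 and 9.47 CPM after tamoxifen, a change at 24 h of −1.58 ± 0.40 (adjusted p = 0.0309). These were the 2 members called in RNA at 24 h, with 6.47% of 10612 genes called (4.67% higher and 1.80% lower). Each tamoxifen time has 1 RNA library, assumed to vary like the uninduced ones. PSAT1 is not called without ethanol 1 h (−0.89), and ASNS not without 0 h (−1.52), ethanol 1 h (−1.42) or ethanol 4 h (−1.64). Against ethanol of the same time, which is a ratio of 2 libraries with no test, the log2 ratio at 24 h was −0.77 for PSAT1 and −1.04 for ASNS. By the same ratio ALDH1L2 stood at −0.99, SHMT1 at −0.59, MTHFD1 at −0.54, PHGDH at −0.50 and SHMT2 at −0.11. PSPH (0.29), MTHFD1L (0.23) and MTHFD2 (0.42) were higher than in ethanol. PHGDH RNA, at 26.4, 25.2, 15.3 and 22.1 CPM in uninduced cells and 15.3 CPM at 24 h, was not called (−0.55, 95% interval −1.26 to 0.15), and the others ran from −0.58 (MTHFD1) to 0.34 (MTHFD1L).

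No member was called in RNA at 1 h or 4 h by edgeR or DESeq2, where 0.00942% and 0.160% of all genes were called by edgeR. An unadjusted p under 0.05 was seen for 1 member at 1 h (PSAT1, −0.50) and for 0 at 4 h, and for 259 and 492 of all 10612 genes. In loading, edgeR called no member at any time, where 0%, 0% and 0.618% of all genes were called at 1, 4 and 24 h. The members' log2 changes ran from −0.62 to 0.29 at 1 h and from −0.19 to 0.58 at 4 h. At 24 h they ran from −0.44 for PSPH to 1.00 for ASNS (95% interval −0.13 to 2.13). The number of members with an unadjusted p under 0.05 was 0, 0 and 1, the last being MTHFD2 at 24 h (−0.41). Of all 12143 genes 557, 383 and 777 had one. PSAT1 loading at 24 h stood at −0.12 (95% interval −0.54 to 0.31), with both its footprints and its RNA lower. The loading change of PSAT1 in ELR against EL (−2.28 to −1.26) lies outside that interval, and the difference between the models was not tested.

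**Figure D4:**
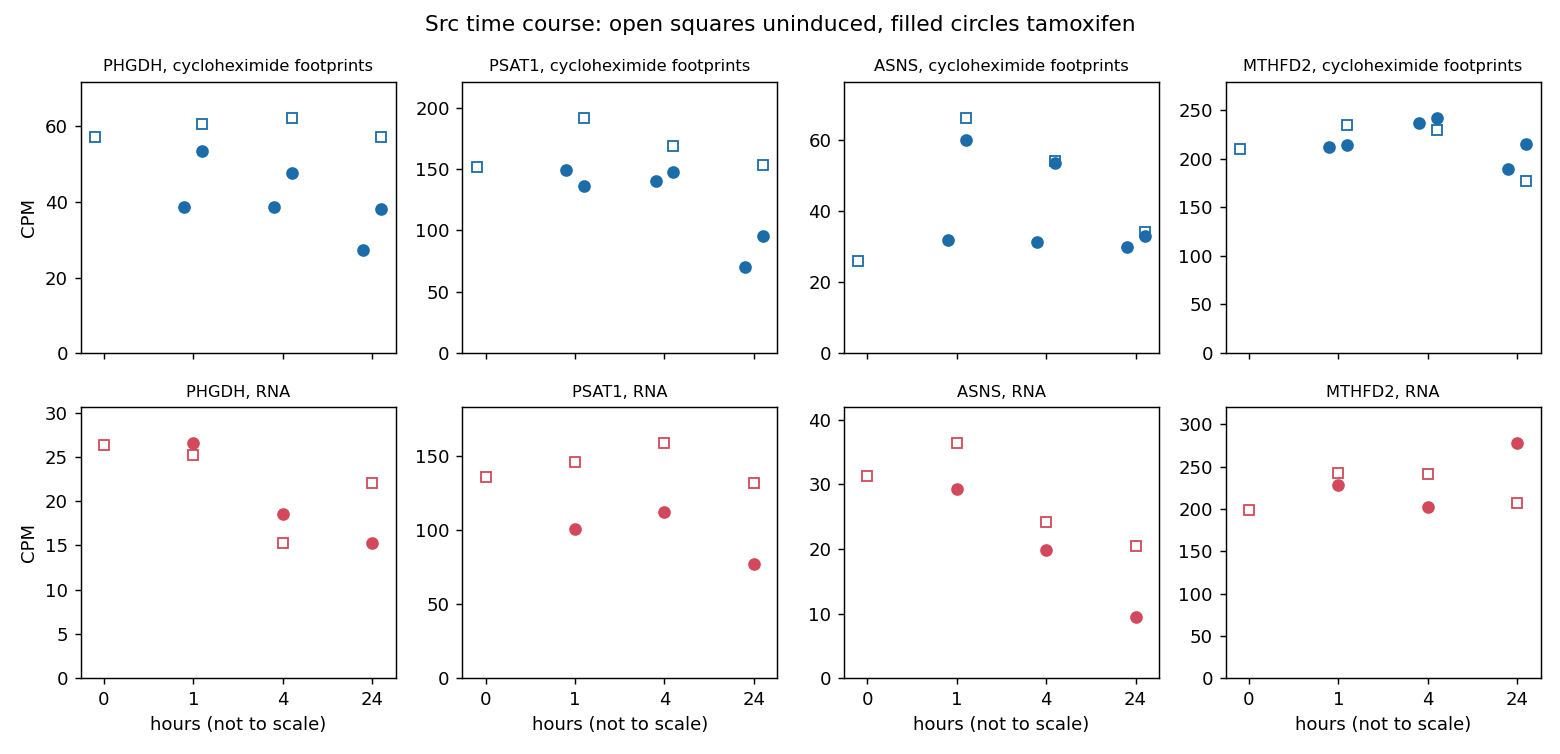
Cycloheximide footprints (top) and RNA (bottom) of PHGDH, PSAT1, ASNS and MTHFD2 in MCF10A-ER-Src cells, in CPM against hours; each point is 1 library, open squares uninduced (0 h and ethanol), filled circles tamoxifen, with replicate 1 to the left of replicate 2. PSAT1 footprints after tamoxifen for 24 h, at 69.9 and 95.8 CPM, lie below all other libraries, and ASNS footprints overlap between tamoxifen and uninduced libraries.

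ATF4 footprints were not called in this course: they were 21.6 to 37.6 CPM in uninduced cells and 30.4 and 30.8 CPM at 24 h (log2 difference 0.14, 95% interval −0.30 to 0.57). Of 30 tested genes of its list, 6 rose and 3 fell at 24 h, beside 8.80% and 5.84% of all genes, with SLC38A2 (1.07) and CEBPB (1.24), a C/EBP transcription factor, among those that rose and SLC7A5 (−0.86) among those that fell. In RNA 1 of 32 rose and 3 fell, beside 4.67% and 1.80% of all genes, and the cystine transporter SLC7A11 was among those that fell (−1.50). In the folate, glycine and methionine cycle, footprints on GLDC, which cleaves glycine, rose by 3.18 at 24 h, while those on AHCY changed by −0.79 and those on TYMS by −0.75. RNA of GLDC also rose, by 3.91.

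Harringtonine libraries of this model number 1 per time, so their values carry no test. PSAT1 had 54.2 CPM in the uninduced library and 50.7, 44.7 and 34.7 CPM after 1, 4 and 24 h, from 8 to 14 counts each. MTHFD1, the most abundant member there, had 532, 484, 580 and 352 CPM, and MTHFD2 had 73.9, 50.7, 78.1 and 109 CPM. The value at 24 h was the lowest of the course for PSAT1 and MTHFD1 and the highest for MTHFD2.

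Finally, uninduced MCF10A-ER-Src cells were set against EH, the earliest BJ line, a comparison of cell type and model at once. Footprints on PHGDH, PSAT1, PSPH and ASNS were fewer in the epithelial line: PHGDH was 7.69-fold lower (log2 difference −2.94 ± 0.12, adjusted p = 6.82e-14), at 59.3 ± 2.51 CPM (SD, n = 4) against 451 ± 2.40 CPM (SD, n = 2). The log2 difference was −2.54 ± 0.24 for ASNS and −1.44 ± 0.12 for PSAT1, and ALDH1L2 (−1.53), MTHFD1L (−1.08) and MTHFD2 (−0.43) were lower too. SHMT1 was higher, by 1.08 ± 0.25. In all 7 members were called lower and 1 higher, with 59.1% of 10936 genes called (29.4% higher and 29.7% lower) and a members' median of −0.88 beside 0.01. PSPH (−0.68 ± 0.25, adjusted p = 0.0263) is not called by DESeq2 or without EH replicate 2 (−0.35). SHMT2 (95% interval −0.30 to 0.17) and MTHFD1 (−0.17 to 0.25) showed no called difference between the models. Per kilobase, MTHFD2 (202 CPM), SHMT2 (174) and PSAT1 (150) led in uninduced ER-Src cells, MTHFD2 overlapping SHMT2 and SHMT2 overlapping PSAT1, and ALDH1L2 was lowest.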

How the data were processed

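The authors deposited 1 table of whole-number read counts per transcript for each of 36 libraries, with 36499 transcripts and no normalisation. Per the submitters' processing notes reads were aligned with TopHat to hg19 (GRCh37). The version and the counting program are not given in the sources used here, nor how reads shared between copies were counted. For each symbol the transcript with the highest mean count stood for the gene. Counts were fitted over all genes with edgeR 4.0.16 (limma 3.58.1, R 4.3.3): TMM scaling, filterByExpr (minimum count 10, total 15), the quasi-likelihood test, two-sided, with Benjamini-Hochberg adjustment over all genes tested and a threshold of 0.05. There were 20 comparisons. Loading is an interaction of assay with line or arm in 1 fit of 26 libraries. CPM values are TMM-scaled within each assay. Log2 changes name the first group relative to the other, with SE. BJ RNA (1 library per line) is described by log2 ratios with a pseudocount of 1 for genes with at least 10 CPM.

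The rule names all 10 members, with values for each one called, and those not called are given singly or by their range. From 3 further lists, named are ATF4 and the called genes with the smallest p, at most 3 per list and comparison, with the values of such genes also given in the other comparisons. The members and lists were chosen with earlier results of these data known, and the target list holds genes known to respond to ATF4 in general. One gene of the folate list is not reported here. The fits were tested on simulated counts. Alternatives were DESeq2 1.42.0, its size factors in edgeR, no filter on low counts, another source of the spread, a replicate block, and leaving out each library. Depth sets the precision: members with under about 10 counts in a library, as ALDH1L2 in ELR, have wide errors, and intervals cover the spread between these libraries only. Promoter sequences are RefSeq's, of GRCh38.p14, and no coordinates were converted between builds.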

Additional observations from a re-analysis of the deposited data

How the results depend on the processing

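Of 51 called member results, recomputed as 482 alternative values, 426 stayed called in the same direction, 56 were no longer called and 0 changed sign. Of 133 results never called, 91 of 1305 alternative values had the opposite sign, and 14 values in 10 results were called under an alternative only. The number of members called in ELR against EL cycloheximide footprints was 4 with the spread taken from all 16 cycloheximide libraries, beside 7. Under harringtonine, EL against EH gave 0 members with DESeq2, with no filter and with the spread of all 12 BJ footprint libraries, beside 1, ELR against EL gave 0 with DESeq2, beside 2, and ELR against EH gave 3 with DESeq2, beside 7. In loading, fitting only the libraries of the same model gave 1 member for EL against EH, beside 0, and 6 for ELR against EL, beside 1, and no filter gave 3 for the latter. In that fit the spread rests on cycloheximide replicates alone. For ELR against EH it gave 6 members, beside 4, and the RLE factors or no filter gave 5. The cause of these shifts was not tested.

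Leaving out each library in turn gave 4 to 6 members for ELR against EL cycloheximide footprints, 0 to 2 for EL against EH and 0 to 2 for ELR against EL under harringtonine, 4 to 5 for ELR against EH under harringtonine, 2 to 2 for ELR against EH loading, 1 to 2 for Src 24 h footprints, 0 to 1 for 24 h against 1 h, 0 to 3 for Src 24 h RNA and 7 to 8 for uninduced ER-Src against EH. The other comparisons kept their count. The lone BJ RNA libraries could not be left out, so loading rests on each of them.

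Replicate numbers were treated as numbers only. Deviations of same-numbered libraries correlated by 0.03 to 0.04 in BJ cycloheximide libraries and −0.02 to 0.02 under harringtonine. In the ER-Src tamoxifen libraries they correlated by 0.05 to 0.28, and what the number stands for there was not tested. With a replicate block the counts of members were 8, 7 and 8 for the BJ cycloheximide comparisons (EL against EH, ELR against EL, ELR against EH), 1, 2 and 7 under harringtonine, and 0, 0 and 2 for Src at 1, 4 and 24 h and 1 for 24 h against 1 h, as without it.

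Counts over all genes moved by more than 1.5 times in some fits. DESeq2 called 2461 genes against 4150 (EL against EH) and 1822 against 3606 (ELR against EL) under cycloheximide, 255 against 659, 187 against 579 and 491 against 1092 under harringtonine, 12 against 2 for Src 1 h footprints, and 4 against 1 and 447 against 687 for Src RNA at 1 and 24 h. The 16-library spread gave 2608 against 4150 and 1781 against 3606. Without the filter, 22 against 2 and 175 against 87 genes were called for Src footprints at 1 and 4 h, 6 against 1 and 35 against 17 for RNA, and 40 against 7, 5 against 2 and 128 against 60 for BJ loading. The block gave 4 against 2 at 1 h. The same-model fit gave 743 against 7, 329 against 2 and 829 against 60 for BJ loading and 49 against 75 for Src 24 h loading. Leaving out 1 library gave 414 to 456 genes (against 659), 347 to 396 (against 579) and 716 to 869 (against 1092) under harringtonine. For Src it gave 0 to 6, 9 to 82 and 703 to 1960 genes in footprints at 1, 4 and 24 h (against 2, 87 and 1492), 488 to 948 for 24 h against 1 h (against 1391), and 0 to 14, 4 to 99 and 364 to 1595 in RNA (against 1, 17 and 687). In BJ loading it gave 0 to 0 for EL against EH (against 7) and 14 to 26 for ELR against EH (against 60). The percentages of all genes called beside the members' counts rest on the full fits.

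Depth limits most what can be said of PSPH, SHMT1 and ELR values of ALDH1L2, and of every harringtonine value.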
